A study of Ovis aries with 15 samples.

Results

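The response of the fetal kidney cortex to a single episode of low oxygen, with no drug, was read from 7 arrays: 4 from hypoxic and 3 from normoxic fetuses, out of 15 arrays in the series. The arrays were chosen by their sample titles alone. All 7 fetuses were late-gestation sheep (125 ± 3 d, with term at 145 to 147 d) that carried indwelling catheters and had been allocated to groups at random. They received saline as the vehicle 10 min before 30 min of hypoxia, produced through the mother's ventilation, or 30 min of normoxia. Cortex was taken 24 h after the exposure began, and each fetus gave 1 array. The remaining 8 arrays, from fetuses given 3 mg/kg of ketamine (a blocker of NMDA receptors used in anaesthesia) before normoxia (4) or hypoxia (4), served here in the choice and filter of probes, in the estimate of each probe's spread and in 1 comparison at the end. In bulk cortex, a change in the number of cells of a type cannot be told apart from a change in RNA per cell. Of the kidney markers, SLC34A1, the phosphate transporter of the proximal tubule, and AQP2, the water channel of the collecting duct, had a named probe, and both were well above background on all 7 arrays; LRP2, CUBN, SLC12A1, UMOD and NPHS1 had none.

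The kidney cortex holds glomeruli, proximal and distal tubules, the tops of collecting ducts, vessels and interstitial cells. In a late-gestation fetus it filters and makes urine, while the placenta still clears most waste. Low oxygen stabilises the hypoxia-inducible factors, which raise the transcription of genes for glucose uptake, glycolysis and red cell production. Injured or poorly perfused kidney can also release cytokines. These act through NF-kB, a transcription factor held in the cytoplasm by inhibitors such as NFKBIA, and they bring leukocytes to the vessel wall through selectins and integrins.

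The changes below were read by probes of 60 bases, 1 probe per gene (the brightest over the 15 arrays). The first 30 bases of the probes behind the main results are shown, 5′ to 3′ and in lower case as the scanner files give them, because the array is named for few genes and the sequence is what ties each value to its transcript. The last 2, which carry only a probe identifier, are the probes that passed correction over the whole array.
TNF: tgcctgtaaccgccctactggtcagtggcg
IL1B: cgttttagaggtggccaggatataactgac
IL6: ggagccaaatcatttcttgaaatgtgtagg
CXCL8: attgaactggaagtcctacttttgagatgc
SELP: cagctttcccgaaaagacttgattataact
SLC2A3: ggaatttttcccagttctcagtgaccaggt
IGF1: aacacaagcagagggagtgcaggaaacaag
SNAI2: aaggcattttgtcttgtgctgacaacccaa
AGTR1: ccagtcccaggtagtcgtgttagttttatt
A_70_P048566: taagctctgtgtctttgttacctgtctcca
A_70_P000721: cagttttgtagccactaattccaggagaag

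Signals are given as a percentage of the 75th percentile of all probe signals on the same array, called the scaled signal here. They can be compared between fetuses for 1 probe but not between probes. Changes are log2 differences, hypoxic minus normoxic, ± SE from limma (4 against 3 fetuses). A probe or gene "rose" or "fell" where its p, not adjusted, was 0.05 or less, as in the series' own description. By this threshold 746 of 12923 tested probes rose (5.77%) and 1340 fell (10.4%), with a median change of -0.05 over all probes. Only 2 probes (0.0155%) passed a Benjamini-Hochberg adjusted p of 0.05. Without normoxic fetus 2 the number that fell was 803. The number past the adjusted threshold was 0 without any 1 normoxic fetus or hypoxic fetus 4, and 4, 16 and 12 without hypoxic fetuses 1, 2 and 3. Among the 837 tested genes with a name, 85 rose (10.2%), 62 fell (7.41%), 0 passed the adjusted threshold and the median change was 0.04. Counts of risen and fallen genes in the groups below are to be read beside these 2 shares. All 4 hypoxic arrays lay above all 3 normoxic ones for 651 probes (5.04%) and below them for 1240 (9.6%); among named genes this held for 82 (9.8%) and 59 (7.05%). The naming rule given under processing picked 47 risen or fallen genes, called the 47 here. Each of them passed also in each of the 7 fits that left out 1 vehicle array. Over all named genes, 43 rose (5.14%) and 32 fell (3.82%) in this stricter sense, beside 2.17% and 3.54% of all probes. The adjusted p of the 47 ran from 0.0654 to 0.222.

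Both groups were spread over 2 slides. Slide 1 held normoxic fetuses 1 and 2 and hypoxic fetuses 2 and 4, and slide 2 held normoxic fetus 3 and hypoxic fetuses 1 and 3. All 47 genes kept their direction within both slides, 34 passing within slide 1 and 18 within slide 2, where the normoxic value is a single array. Within slide 1, 492 probes rose and 711 fell, and within slide 2, 330 and 334. With slide as a block the counts were 795 and 1365. Normexp background correction, which lifts every signal by an offset, gave smaller changes for dim probes: 21 of the 47 genes moved by over 1.5 times on the log2 scale and 9 no longer passed. Beside a gene of the 47 whose log2 change or fold moved by over 1.5 times, the change then follows. It stands after the word normexp, with not passing where the call ended. It stands after the word slides for the values within slides 1 and 2. After the word or it is that of the fits without the arrays named, 1 left out at a time. Medians of gene groups beyond 0.25 in size are marked in the same way. Other genes carry no such marks, whether or not they moved. For a gene that did not pass in every fit, the word lost names each array whose omission ended the call, with the change then. The hypoxic fetuses differed more among themselves (median SD of a probe 0.289 on the log2 scale) than the normoxic ones (0.176), and the pooled SE does not show this.

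Several inflammatory cytokines were higher after hypoxia. All 10 tested cytokines had a change above 0 (median 1.23, normexp 0.39, or 1.91 without hypoxic 1). Of them 5 rose: TNF, IL1B, IL6, IL1A and IL18. The array held 17 cytokines, and 7 were too dim to test (IL12B, IL2, IL4, IL5, IL13, CSF2 and CSF3). Probes were kept for their signal on arrays of all groups, so a dim cytokine could enter through hypoxic arrays where it was high. The count above 0 may therefore lean towards a rise. TNF, an early cytokine of macrophages, had scaled signals of 4.14, 4.36 and 4.78 in normoxic fetuses 1 to 3 and 81.1, 41.5, 36.5 and 233 in hypoxic fetuses 1 to 4. No values overlapped, and the increase was 16.5-fold (4.05 ± 0.67, normexp 2.90). IL1B, the secreted form of interleukin 1, read 4.16, 3.73 and 4.20 in normoxia and 190.1, 21.2, 10.7 and 117 in hypoxia. Hypoxic fetuses 1 and 4 stood far above 2 and 3, which were themselves above every normoxic fetus (11.8-fold, 3.56 ± 0.78, normexp 2.43, or 2.89 and 4.27 without hypoxic 1 and 3). IL6, which drives the acute phase response, split more sharply. It was not well above background in any normoxic fetus (0.205, 0.181 and 0.245) or in hypoxic fetuses 2 and 3, and read 239, 0.936, 1.03 and 805 over the 4 hypoxic fetuses. With the normoxic values raised to the lowest signals called well above background, the mean was 26.9-fold higher. This took hypoxic fetuses 2 and 3 at their measured values, so it is not a strict lower bound. The fitted change was 6.63 ± 1.98, normexp 2.97, slides 7.15 and 6.0, or 5.46, 8.12, 8.08 and 4.87 without hypoxic 1, 2, 3 and 4. IL1A, the cell-associated interleukin 1, rose from 3.51, 2.31 and 1.2 to 62.0, 11.6, 2.05 and 99.2 (3.20 ± 0.97, normexp 1.80, or 4.28 and 2.41 without hypoxic 3 and 4), and hypoxic fetus 3 lay within the normoxic range. IL18, made also by tubular epithelium, rose 1.83-fold (0.87 ± 0.21, normexp 0.38 not passing; 1 of its 2 other probes went the same way). The 5 that did not pass were IL10 (1.34 ± 1.05), IL7 (1.12 ± 0.86), IFNG (0.74 ± 0.43), IL12A (0.52 ± 0.35) and IL15 (0.25 ± 0.59). IL10, which restrains inflammation, was highest in hypoxic fetuses 2 and 3: its scaled signal was 0.346, 7.61, 10.3 and 0.898 in hypoxic fetuses 1 to 4 against 0.821, 0.873 and 0.944 in normoxia.

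**Figure D1:**
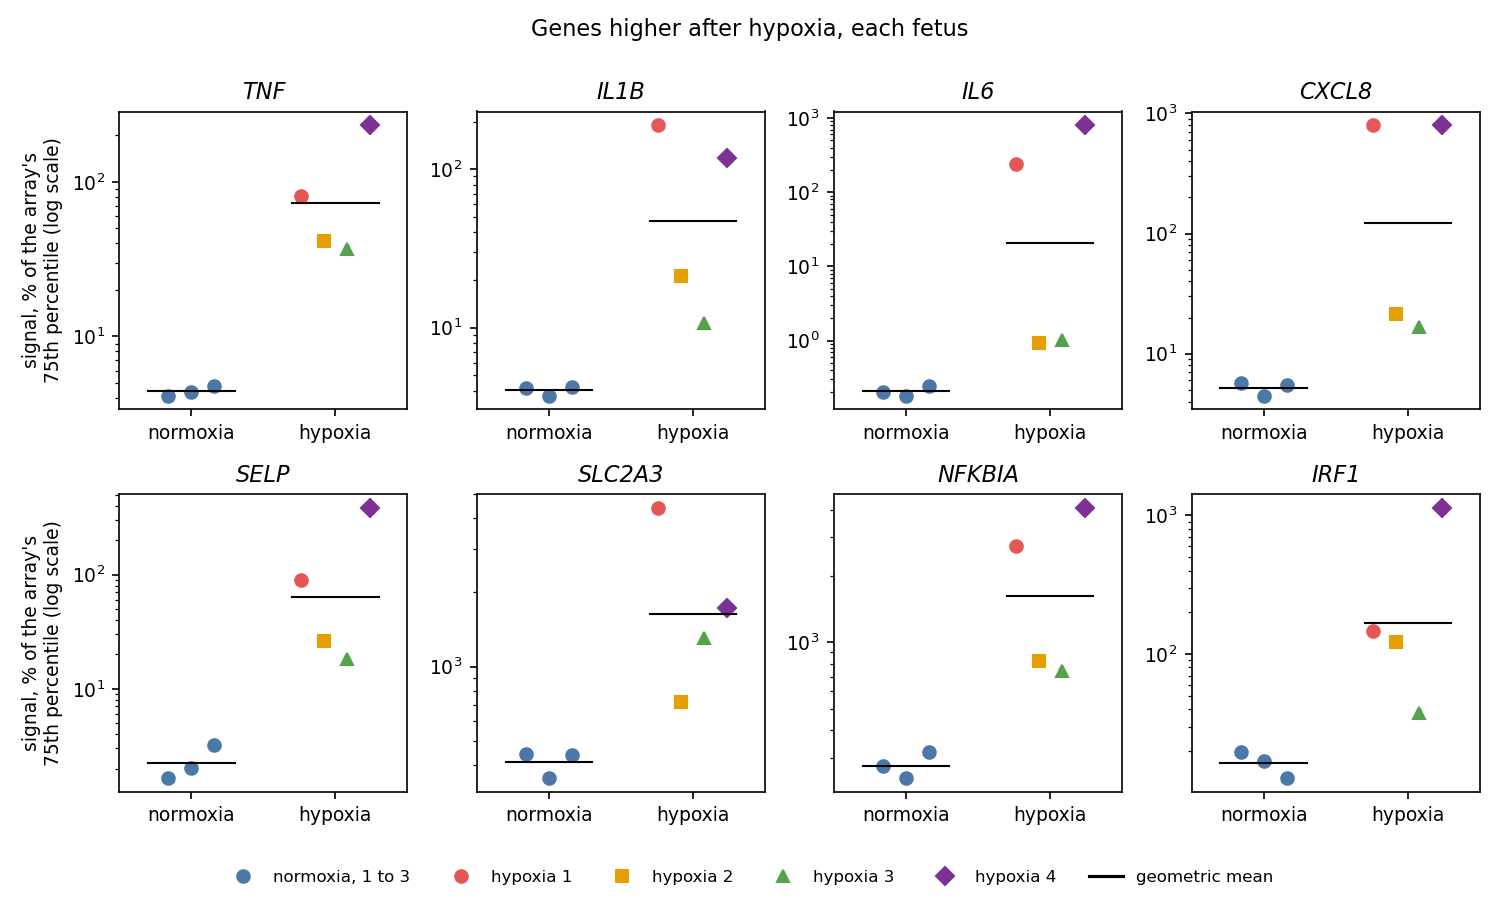
Scaled signal (percent of the array's 75th percentile, log axis) of 8 genes in each of the 3 normoxic (circles at left) and 4 hypoxic vehicle fetuses (1 symbol each), with geometric means as bars. All hypoxic points lie above all normoxic points for each gene. IL6 was not well above background in the 3 normoxic fetuses and in hypoxic fetuses 2 and 3, and hypoxic fetuses 1 and 4 hold the 2 highest points of every gene shown.

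Among chemokines and the natural brakes on cytokines, several rose. CXCL8, the attractant of neutrophils, read 5.73, 4.48 and 5.47 in normoxia and 799, 21.3, 16.7 and 799 in hypoxia, so that fetuses 1 and 4 were about equally high and fetuses 2 and 3 low but still above normoxia (23.6-fold, 4.56 ± 1.24, normexp 3.64, or 3.66, 5.40, 5.52 and 3.66 without hypoxic 1, 2, 3 and 4). The other chemokine that rose was CXCL10 (3.35 ± 1.54, lost without normoxic 1, 2 or 3 or hypoxic 2 or 4, 1.82 to 3.75); CXCL1 (0.35 ± 0.18) and CCL25 (0.15 ± 0.19) did not pass. IL1RN, the antagonist that occupies the interleukin 1 receptor, read 1.55, 2.44 and 2.04 and 39.98, 13.2, 11.9 and 65.4 and rose 12.8-fold (3.68 ± 0.97, normexp 1.87). IFNAR1, a chain of the type I interferon receptor, rose 1.53-fold (0.62 ± 0.19). In all, 4 of 7 receptors and antagonists rose and 0 fell (median 0.62), while with normexp 3 rose. The other 2 risen members were IL2RA (1.61 ± 0.58, lost without normoxic 3, 1.40) and IFNAR2 (1.25 ± 0.54, lost without normoxic 1, 2 or 3 or hypoxic 4, 0.62 to 1.29).

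Genes of toll-like receptor and NF-kB signalling followed, with 6 of 11 rising, 0 falling and a median of 0.58, normexp 0.28, slides 0.75 and 0.30. With normexp 4 of the 11 rose. NFKBIA, the inhibitor that NF-kB induces to shut itself off, had scaled signals of 274, 242 and 317 in normoxia and 2736, 822, 741 and 4087 in hypoxia, without overlap (5.85-fold, 2.55 ± 0.54). TLR2, a receptor for microbial lipoproteins, read 4.26, 2.95 and 6.70 and 15.1, 9.03, 15.9 and 48.6, highest in hypoxic fetus 4 (4.11-fold, 2.04 ± 0.62, normexp 1.15, slides 2.56 and 1.21). CD14, the co-receptor of TLR2 and TLR4, rose 1.93-fold (0.95 ± 0.31), and the shared adaptor MYD88 rose 1.49-fold (0.58 ± 0.18, normexp 0.28 not passing). The other 2 risen members were TLR4 (1.15 ± 0.47, lost without normoxic 1 or 2 or hypoxic 4, 0.68 to 1.1), the lipopolysaccharide receptor, and the kinase subunit IKBKB (0.64 ± 0.26, lost without normoxic 2 or hypoxic 1 or 4, 0.40 to 0.59). IRAK4, TLR3, TLR5, TLR6 and TLR7 did not pass (changes from -0.13 to 0.38).

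Some acute phase and vessel wall genes rose. SAA3, a serum amyloid A made outside the liver, read 0.605, 1.29 and 2.55 in normoxia, where 2 of 3 arrays were well above background, and 34.0, 79.9, 1252 and 93.9 in hypoxia. The highest hypoxic value, in fetus 3, was far above the other 3, and the fitted change was 6.73 ± 1.84, normexp 4.27, or 7.39 and 5.66 without hypoxic 1 and 3. PTX3, a soluble pattern recognition protein, read 1.2, 1.48 and 1.21 and 71.9, 9.60, 19.9 and 233 (32.8-fold, 5.04 ± 1.41, normexp 2.87, or 5.75 and 4.22 without hypoxic 2 and 4), and here fetus 4 was highest and fetus 2 lowest. PLAUR, the urokinase receptor of activated leukocytes, rose 5.16-fold (2.37 ± 0.57, normexp 0.71). Of the 7 genes in this group 4 rose and 0 fell (median 1.25, normexp 0.71, slides 1.62 and 0.76), the other being complement C3 (1.25 ± 0.51, lost without normoxic 1 or 2 or hypoxic 3 or 4, 1.01 to 1.29). Among 8 leukocyte adhesion genes 3 rose and 1 fell (median 0.62, normexp 0.30, slides 0.39 and 0.61, or 1.08, 0.00 and 0.97 without hypoxic 1, 3 and 4). SELP, the P-selectin that captures rolling leukocytes, read 1.65, 2.04 and 3.23 and 89.2, 26.3, 18.3 and 387 (28.8-fold, 4.85 ± 1.15, normexp 3.07, slides 5.78 and 3.64, or 5.45 and 3.98 without hypoxic 3 and 4). ICAM1, the endothelial partner of leukocyte integrins, read 26.4, 27.0 and 31.5 and 328, 84.0, 52.9 and 769 (6.48-fold, 2.70 ± 0.84, slides 3.25 and 2.06, or 3.29 and 2.01 without hypoxic 3 and 4). Both were highest in hypoxic fetus 4, then fetus 1, and neither overlapped with normoxia. The third was the mucosal addressin MADCAM1 (2.07 ± 0.89, lost without normoxic 1, 2 or 3 or hypoxic 4, 1.33 to 2.16). ITGA4, an integrin chain of lymphocytes and monocytes, went the other way, from 7.28, 7.5 and 6.52 to 3.06, 3.74, 3.70 and 2.05 (-1.22 ± 0.44, normexp -0.62 not passing).

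Myeloid markers rose, with another order of the fetuses. Of 8 genes of monocytes and macrophages 5 rose and 0 fell (median 0.99). FCGR1A, the Fc receptor that binds monomeric IgG, read 5.31, 3.65 and 3.43 in normoxia and 9.39, 24.6, 29.3 and 35.2 in hypoxia (5.45-fold, 2.45 ± 0.54, normexp 1.42). FCGR2B, the inhibitory Fc receptor, read 1.96, 1.33 and 3.45 and 5.98, 9.51, 31.8 and 5.13 (2.24 ± 0.70, normexp 0.89), with hypoxic fetus 3 far above the rest. CD86, a ligand that costimulates T cells, read 8.24, 9.12 and 11.9 and 19.7, 34.0, 55.2 and 22.7 (3.14-fold, 1.65 ± 0.42), again highest in fetus 3 and then fetus 2. The remaining risen markers were CD14, given above, and the Fc receptor chain FCER1G (1.04 ± 0.39, lost without normoxic 3 or hypoxic 3, 0.69 to 1.0). The summed scaled signal of the 8 markers was 99.7 to 112 in normoxia and 141, 275, 437 and 212 in hypoxic fetuses 1 to 4; 7 of the 8 were well above background on all 7 arrays. The neutrophil granule genes CATHL3 and LTF did not pass (1.57 ± 1.35 and 0.93 ± 1.29). Their summed signal was 56.0 to 235 in normoxia and 52.6, 753, 3073 and 91.5 in hypoxia, so that only fetuses 2 and 3 lay above the normoxic range. Of 6 T and NK cell genes 1 rose, CD5, a T cell surface receptor (1.09 ± 0.34, normexp 0.58; 6.61, 14.5, 21.1 and 16.4 in hypoxia against 7.04, 6.02 and 5.99), and their summed signal was 45.8 to 61.6 in normoxia and 34.6, 76.5, 188 and 63.8 in hypoxia. Erythroid genes, which blood left in the tissue would carry, summed to 1173 to 2898 and to 1683, 1994, 1396 and 4808, and none of the 3 passed. The part of leukocyte or blood content in the other changes was not tested.

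Interferon-stimulated genes were high mainly in 1 fetus. All 7 had a change above 0 (median 1.45, slides 2.67 and 0.64, or 2.5 and 0.31 without hypoxic 1 and 4), but only 2 rose, IRF1 and CXCL10. IRF1, a transcription factor of the interferon response, read 19.7, 17.0 and 12.7 in normoxia and 147, 122, 37.3 and 1139.8 in hypoxia (10.2-fold, 3.36 ± 1.05, slides 4.35 and 2.54, or 4.07 and 2.43 without hypoxic 3 and 4), and its groups did not overlap. ISG15, a ubiquitin-like protein, read 1813, 590.3 and 269 in normoxia and 112, 1094, 1204 and 39788 in hypoxia. The antiviral GTPase MX1 read 819.9, 253 and 162 and 57.7, 363, 434 and 12144. In both, hypoxic fetus 4 was far above the rest and fetus 1 was below all normoxic fetuses, and neither passed (1.24 ± 1.53 and 0.84 ± 1.43). Both measured genes of antigen presentation on MHC class I rose, but not in each fit: PSMB8 (1.82 ± 0.81, lost without normoxic 1, 2 or 3 or hypoxic 2, 3 or 4, 1.18 to 1.89) and B2M (1.04 ± 0.46, lost without normoxic 1, 2 or 3 or hypoxic 2, 3 or 4, 0.85 to 1.17).

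Immediate early genes, which are switched on within minutes of a stimulus, were high at 24 h in some fetuses. Of 8 genes 4 rose and 0 fell (median 1.32, or 0.78 without hypoxic 4). JUNB, an AP-1 subunit, read 16.8, 23.7 and 20.7 in normoxia and 489, 65.5, 34.3 and 353 in hypoxia (6.94-fold, 2.79 ± 0.74, or 2.19 and 3.47 without hypoxic 1 and 3). FOS, its partner, read 73.7, 237 and 80.7 and 2276, 121, 115 and 1699 and did not pass (2.10 ± 1.01), with hypoxic fetuses 2 and 3 within the normoxic range. The other risen members were MYC (1.51 ± 0.61, lost without normoxic 2 or 3 or hypoxic 1 or 4, 1.04 to 1.49), ZFP36 (1.39 ± 0.52, lost without normoxic 1 or hypoxic 1 or 4, 0.96 to 1.30) and JUN (0.47 ± 0.20, lost without normoxic 1, 2 or 3 or hypoxic 1 or 4, 0.34 to 0.50). Among stress genes, ATF4, the transcription factor of the amino acid and unfolded protein responses, rose 1.66-fold (0.73 ± 0.23), 1 of 8 chaperone and stress genes. MCL1, which protects cells from apoptosis, read 48.7, 53.5 and 52.7 and 143, 60.3, 92.3 and 264 and rose 2.33-fold (1.22 ± 0.41), 1 of 9 apoptosis genes. The shares of stress and of apoptosis genes that rose are near the 10.2% of all named genes. None of 5 oxidative stress genes passed, the largest change being that of SOD2 (0.91 ± 0.55).

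The 4 hypoxic fetuses differed in which of these groups were high. The mean log2 difference from normoxia over the 8 immediate early genes was 2.46, 0.17, 0.21 and 2.51 in hypoxic fetuses 1 to 4, high in 1 and 4 and near 0 in 2 and 3. For the 8 myeloid markers it was 0.41, 1.40, 2.30 and 0.71, and for the 6 T and NK cell genes -0.43, 0.71, 1.80 and 0.08. Both were highest in fetus 3 and next in fetus 2. For the interferon-stimulated genes it was -0.48, 1.40, 0.74 and 5.65. For the 10 tested cytokines it was above 0 in all 4 (2.39, 1.48, 1.34 and 3.70). Each slide held 1 of fetuses 1 and 4 and 1 of fetuses 2 and 3. Of the 85 named genes that rose, fetus 4 was the highest for 40, fetus 3 for 23, fetus 1 for 14 and fetus 2 for 8. Of the 62 that fell, fetus 4 was the lowest for 31, fetus 1 for 13, fetus 3 for 10 and fetus 2 for 8. Without fetus 4, 625 probes rose and 1021 fell.

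**Figure D2:**
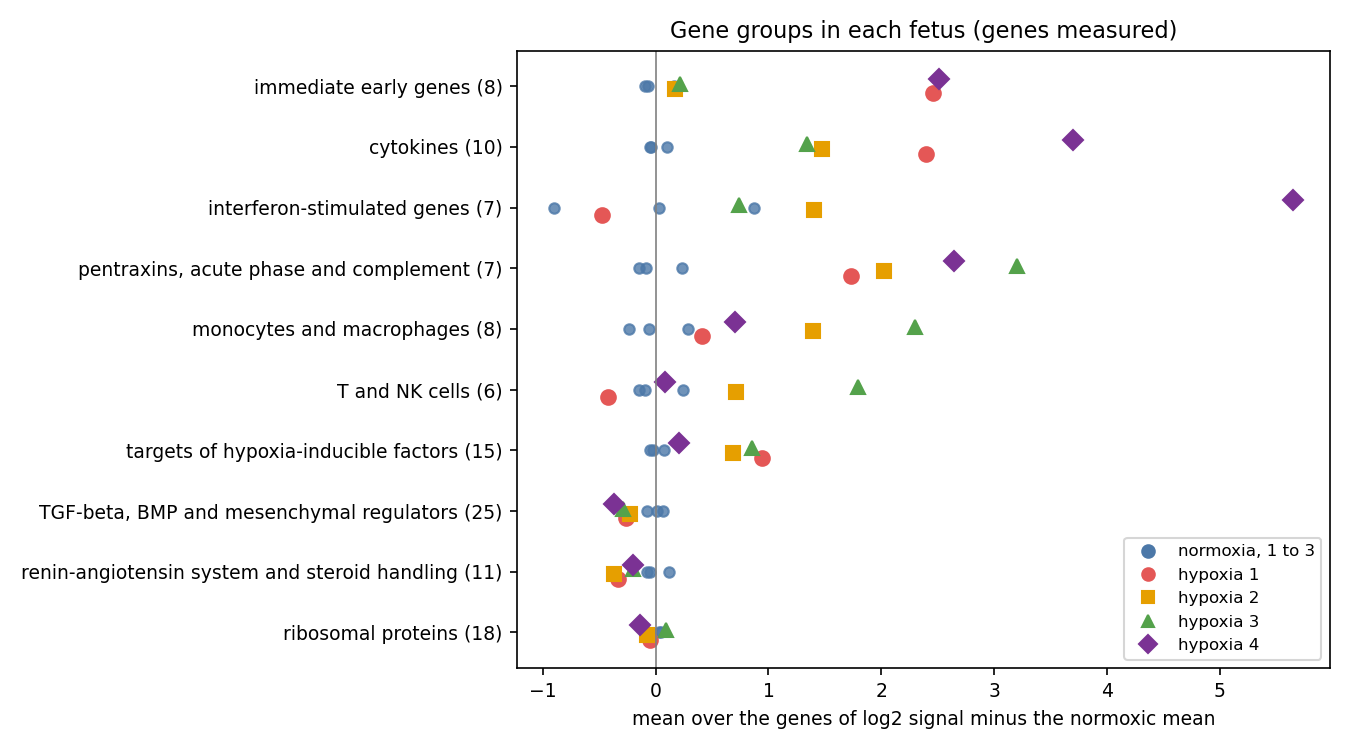
Mean over the measured genes of each group of the log2 signal minus the normoxic mean, for 3 normoxic (blue circles) and 4 hypoxic vehicle fetuses; the number of genes is in parentheses. Hypoxic fetuses 1 and 4 reach 2.46 and 2.51 for the immediate early genes, fetus 3 leads for myeloid (2.30) and T cell markers (1.80), fetus 4 alone reaches 5.65 for interferon-stimulated genes, and ribosomal proteins stay near 0 in all.

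Genes that hypoxia-inducible factors regulate rose in part. Of 15 targets 7 rose and 0 fell (median 0.41, or 0.26 without hypoxic 1). SLC2A3, the glucose transporter of high affinity, had scaled signals of 442, 353 and 439 in normoxia and 4417, 716, 1309 and 1731 in hypoxia, with every hypoxic fetus above every normoxic one (4.00-fold, 2.0 ± 0.47). SLC2A1, the basal glucose transporter, read 48.3, 54.5 and 45.4 and 119, 62.9, 138 and 76.9 (1.92-fold, 0.94 ± 0.27, slides 0.44 and 1.5), higher in fetuses 1 and 3. LDHA, which turns pyruvate into lactate, read 204, 279 and 239 and 504, 559.6, 919 and 413 (2.39-fold, 1.26 ± 0.36). These 3 were also the risen genes in every fit among 19 of glucose handling, of which 6 rose and 0 fell. The glycolytic enzymes changed less and not in each fit: ALDOA (0.48 ± 0.17, lost without normoxic 1, 0.39), PFKL (0.49 ± 0.18, lost without normoxic 1 or 3 or hypoxic 3, 0.34 to 0.45) and GAPDH (0.62 ± 0.28, lost without normoxic 1, 2 or 3 or hypoxic 1, 2 or 3, 0.40 to 0.68). IGFBP1, a binding protein that hypoxia and fasting induce, read 2.79, 1.93 and 1.43 and 60.8, 5.48, 353 and 7.30, without overlap but with fetus 3 very high (3.95 ± 1.62; lost without normoxic 2 or 3 or hypoxic 1 or 3, 2.77 to 3.93). All 3 of its probes rose, but none of them in every fit that left out 1 array. With normexp the call of its brightest probe ended. VEGFA, the endothelial growth factor, did not pass: 237, 226 and 243 in normoxia and 417, 174, 338 and 141 in hypoxia, above normoxia in fetuses 1 and 3 and below it in fetuses 2 and 4 (0.04 ± 0.30; -0.57 within slide 1, where it fell, and 0.63 within slide 2). EPO, the red cell hormone, read 7.95, 4.01 and 11.1 and 10.5, 93.6, 3.05 and 1.72, with only fetus 2 above the normoxic range (0.26 ± 1.23). None of the 4 genes of the oxygen-sensing machinery passed; HIF1A differed by 0.47 ± 0.40 and EPAS1 by 0.41 ± 0.25.

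In the IGF axis 1 growth factor fell. IGF1, a main fetal growth factor, had scaled signals of 12, 9.39 and 15.8 in normoxia and 6.36, 6.46, 4.43 and 4.89 in hypoxia. The hypoxic values were tightly grouped and all lower, a 2.22-fold fall (-1.15 ± 0.21, normexp -0.75). Of the 12 genes of its axis, IGFBP1 rose and IGF1 fell, beside 10.2% and 7.41% of all named genes. IGF2 differed by -0.05 ± 0.09, IGF1R by 0.32 ± 0.16 and GHR, the growth hormone receptor, by -0.67 ± 0.36, and these did not pass. Of 11 cell cycle genes 1 rose and 2 fell, to be read beside the same shares, and with normexp 1 rose and 1 fell. CCND3, a D cyclin, read 81.8, 61.6 and 92.2 and 105, 104, 188 and 168 (1.76-fold, 0.81 ± 0.23). CDKN1B, the inhibitor p27 that holds cells out of the cycle, read 12.2, 17.3 and 13.4 and 7.07, 6.88, 11.7 and 5.20, lower in every hypoxic fetus (1.92-fold, -0.94 ± 0.23, slides -1.28 and -0.56). The other fall was that of CDK4 (-0.31 ± 0.14, lost without normoxic 1, 2 or 3 or hypoxic 1 or 4, -0.33 to -0.23). PCNA (-0.18 ± 0.15) and CDK1 (0.41 ± 0.25), which mark dividing cells, did not pass.

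Receptors for angiotensin and steroids fell. In this group of 11 genes 0 rose and 3 fell (median -0.32, or -0.19 without normoxic 2). AGTR1, the receptor through which angiotensin II constricts vessels and retains sodium, read 445, 445 and 340.2 in normoxia and 149, 251, 306 and 118 in hypoxia. It was lowest in fetuses 1 and 4 and did not overlap with normoxia (2.12-fold lower, -1.09 ± 0.31, slides -1.37 and -0.67). NR3C2, the mineralocorticoid receptor of the distal nephron, read 583, 553 and 629 and 527, 324, 415 and 402 (1.43-fold lower, -0.51 ± 0.16). The glucocorticoid receptor followed: NR3C1 (-0.42 ± 0.18, lost without normoxic 2 or 3 or hypoxic 2 or 3, -0.42 to -0.34). With normexp 2 of the 11 fell, AGTR1 and NR3C2. None of 10 vasoactive genes and none of 8 prostaglandin genes passed. NOS3, the endothelial nitric oxide synthase, differed by -0.38 ± 0.31. PTGS2, the inducible cyclooxygenase, read 199, 229 and 243 in normoxia and 2136, 104, 134 and 2182 in hypoxia, above the normoxic range in fetuses 1 and 4 and below it in fetuses 2 and 3 (1.18 ± 0.91).

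Some matrix genes fell. Of 14 matrix genes 0 rose and 4 fell (median -0.04). COL3A1, a fibrillar collagen chain, read 50.02, 47.0 and 43.4 in normoxia and 26.4, 32.7, 34.2 and 33.2 in hypoxia (1.48-fold lower, -0.57 ± 0.14; both other probes also fell). MMP2, a gelatinase of stromal cells, read 42.1, 37.6 and 34.1 and 21.6, 23.8, 23.9 and 25.8 (1.59-fold lower, -0.67 ± 0.21). The proteoglycan BGN fell from 32.5, 39.5 and 34.9 to 24.6, 30.1, 24.6 and 25 (-0.45 ± 0.15). In these 3 the groups did not overlap, and the hypoxic fetuses lay close together, unlike for the cytokines. The remaining fall was that of COL1A2 (-0.45 ± 0.17, lost without normoxic 2, -0.39), and the inhibitors TIMP1, TIMP2 and TIMP3 did not pass (0.33, 0.24 and 0.30).

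**Figure D3:**
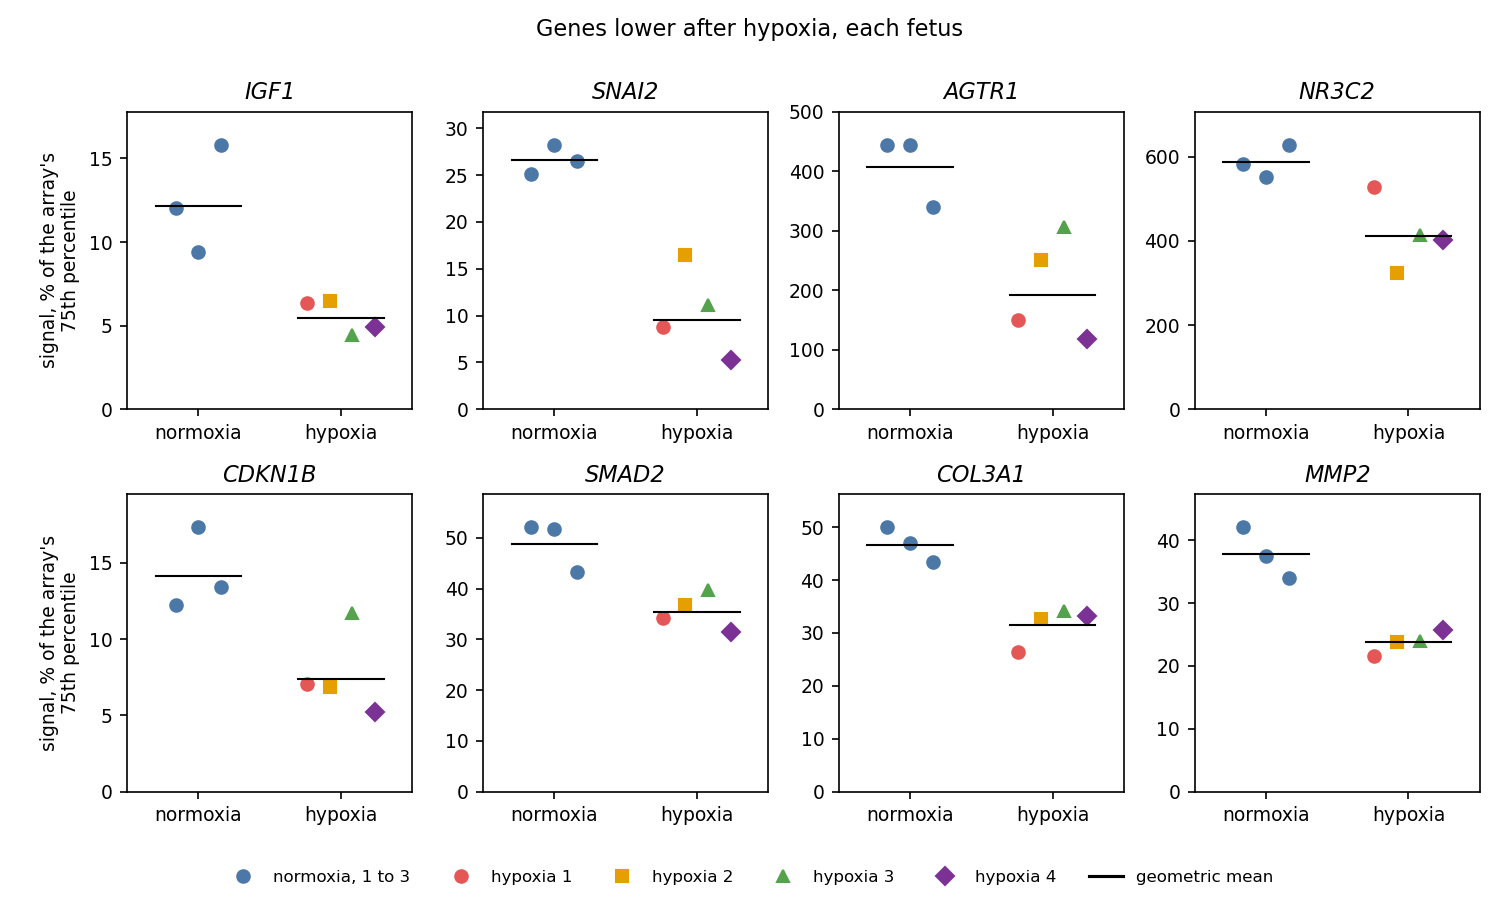
Scaled signal (percent of the array's 75th percentile, linear axis from 0) of 8 genes in each of the 3 normoxic (circles at left) and 4 hypoxic vehicle fetuses (1 symbol each), with geometric means as bars. Every hypoxic point lies below every normoxic point for each gene, for example 4.43 to 6.46 against 9.39 to 15.8 for IGF1.

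Within the TGF-beta and BMP pathway, in which ligands bind receptor kinases that activate SMAD proteins, 0 of 25 genes rose and 6 fell, and 20 lay below 0, while with normexp 2 fell (median -0.34). SNAI2, the repressor of epithelial genes in mesenchymal cells, read 25.1, 28.3 and 26.5 in normoxia and 8.73, 16.4, 11.1 and 5.26 in hypoxia (2.78-fold lower, -1.48 ± 0.31). SMAD2, which carries the TGF-beta and activin signal, read 52.1, 51.8 and 43.3 and 34.2, 36.8, 39.7 and 31.4 (1.38-fold lower, -0.47 ± 0.11, slides -0.61 and -0.23). Neither overlapped between groups. The other falls were those of SMAD4 (-0.27 ± 0.12, lost without normoxic 1 or 2 or hypoxic 1, 2 or 3, -0.30 to -0.18), ACVR2A (-0.41 ± 0.15, lost without normoxic 2 or 3, -0.36 to -0.35), TGFBR1 (-0.47 ± 0.21, lost without normoxic 1 or 2 or hypoxic 2 or 3, -0.44 to -0.30) and the BMP antagonist CHRD (-0.56 ± 0.24, lost without normoxic 2 or hypoxic 3 or 4, -0.53 to -0.33). The ligands TGFB1 (-0.02 ± 0.23), BMP4 (-0.44 ± 0.26) and BMP7 (-0.56 ± 0.37) did not pass. Of 16 angiogenic and endothelial genes 0 rose and 2 fell (median -0.25, slides -0.28 and -0.05, or -0.14 and -0.15 without normoxic 1 and hypoxic 4). Of all named genes 7.41% fell. With normexp 1 of the 16 fell. The 2 fallen genes were the VEGF receptor KDR (-0.38 ± 0.14, lost without normoxic 3, -0.28) and the vessel-stabilising ligand ANGPT1 (-0.78 ± 0.29, lost without normoxic 1 or hypoxic 4, -0.69 to -0.62). All 4 probes of KDR and both of ANGPT1 fell. The endothelial marker PECAM1 differed by -0.29 ± 0.28, and the adhesion genes SELP and ICAM1, which endothelium also expresses, rose as given above.

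Some tubular genes passed. Of 11 proximal tubule genes 3 rose and 1 fell (median 0.30, normexp 0.05, slides -0.01 and 0.80, or -0.12 to 0.62 on leaving out 1 array). Of all named genes 10.2% rose and 7.41% fell. With normexp 1 of the 11 rose and 0 fell. CYP24, the hydroxylase that inactivates vitamin D, was well above background in 1 of 3 normoxic and all 4 hypoxic fetuses, reading 0.748, 0.550 and 1.54 and 68.9, 3.03, 3.33 and 17.1 (3.60 ± 1.05, normexp 1.43, or 2.70 and 4.20 without hypoxic 1 and 2). SLC9A3, the apical sodium-proton exchanger, read 1.23, 1.62 and 1.32 and 2.18, 2.04, 3.68 and 1.93 (0.78 ± 0.24, normexp 0.05 not passing, slides 0.49 and 1.1). This probe is dim, its other probe did not pass, and with normexp the change was near 0. SLC4A4, the basolateral bicarbonate transporter, read 5.59, 7.80 and 7.03 and 5.49, 4.10, 4.96 and 4.11 (-0.54 ± 0.17, normexp -0.36 not passing). The peptide transporter SLC15A1 (1.5 ± 0.66, lost without normoxic 2 or 3 or hypoxic 1 or 4, 1.18 to 1.62) also rose, and SLC34A1 differed by -0.21 ± 0.25. In the distal nephron, AQP3, the basolateral water channel of the collecting duct, was the only risen gene of 9: 185, 201 and 248 and 242, 353, 459.5 and 375, with hypoxic fetus 1 inside the normoxic range (1.66-fold, 0.73 ± 0.22, slides 0.92 and 0.43). AQP2 (-0.03 ± 0.18) and the sodium channel subunit SCNN1A (0.31 ± 0.29) did not pass. Of 40 solute carriers 5 rose, near the 10.2% of all named genes, and 1 fell (with normexp 3 and 1). All were named above except SLC66A2 (0.62 ± 0.21, lost without normoxic 2, 0.53).

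None of 18 ribosomal protein genes and none of 7 oxidative phosphorylation genes passed (medians -0.03 and 0.00). Of 4 reference transcripts, often used as loading standards, 2 rose, GAPDH and B2M, given above, and neither passed in every fit (median 0.37). Of 8 clock genes only DBP (-0.85 ± 0.38, lost without normoxic 1, 2 or 3 or hypoxic 1, 3 or 4, -0.92 to -0.71) fell, and of 7 glutamate receptor and transporter genes only GRIA4, an AMPA receptor subunit, from 1.79, 1.26 and 1.81 to 0.766, 0.686, 0.986 and 0.837 (-0.98 ± 0.28, normexp -0.32 not passing). It was well above background on only 1 hypoxic array. These falls in the clock and glutamate groups stand beside the 7.41% of all named genes that fell. None of 4 placental genes passed, and CSH1 was not well above background on any of the 7 arrays. The other large decreases were LAT2 (3.93, 4.47 and 6.76 to 1.67, 3.03, 0.504 and 1.35; -1.85 ± 0.56, normexp -0.70 not passing, slides -1.05 and -2.88) and BARX2, a homeobox gene (4.44, 2.02 and 3.58 to 1.06, 1.64, 1.70 and 1.24; -1.20 ± 0.34, normexp -0.51 not passing). SIRT4, a mitochondrial sirtuin, read 1.89, 1.47 and 7.06 and 0.873, 1.31, 0.935 and 1.38 (-1.29 ± 0.42, normexp -0.57 not passing, slides -0.31 and -2.96, or -0.60 without normoxic 3).

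The 2 probes that passed correction over the whole array have no gene name in the sources used here, and both are dim. A_70_P048566 read 2.38, 2.08 and 2.09 in normoxia and 8.79, 7.02, 11.5 and 12.7 in hypoxia, without overlap (4.47-fold, 2.16 ± 0.29, adjusted p = 0.0270 in limma). A_70_P000721 read 1.65, 1.29 and 1.34 in normoxia, where all 3 arrays were well above background, and 0.415, 0.557, 0.378 and 0.361 in hypoxia, where none was. On the scaled signal, though not with normexp as given below, it was at least 1.77-fold lower (fitted change -1.75 ± 0.21, adjusted p = 0.0126 in limma). With normexp the change was 0.83 for A_70_P048566, which still passed the unadjusted threshold. For A_70_P000721 it was -0.43, not passing even unadjusted. In that setting no probe passed correction.

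Whether the response differed in fetuses given ketamine was tested as the change in vehicle fetuses minus the change in ketamine fetuses, which share no arrays. Over all probes 407 (3.15%) differed at an unadjusted p of 0.05 and 0 after adjustment in limma, and among named genes 31 of 837 did (3.7%). Of the 47 genes of the naming rule 11 passed the unadjusted threshold, and 43 had a smaller change of the same sign in ketamine fetuses. The 47 were chosen for their change in vehicle fetuses, so neither count is independent evidence of a difference. The 11 were TNF (4.05 against 1.52 ± 0.62 with ketamine), IL1B (3.56 against 0.89 ± 0.72), SLC2A3 (2.0 against 0.41 ± 0.44), NFKBIA (2.55 against 0.81 ± 0.50), SNAI2 (-1.48 against -0.28 ± 0.29), SMAD2, CDKN1B, CCND3, SLC9A3, GRIA4 and SIRT4. Their smallest adjusted p was 0.989. Genes whose changes were much alike in both arms included CD86 (1.65 against 1.38 ± 0.39), COL3A1 (-0.57 against -0.49 ± 0.13) and SLC4A4 (-0.54 against -0.61 ± 0.16).

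**Figure D4:**
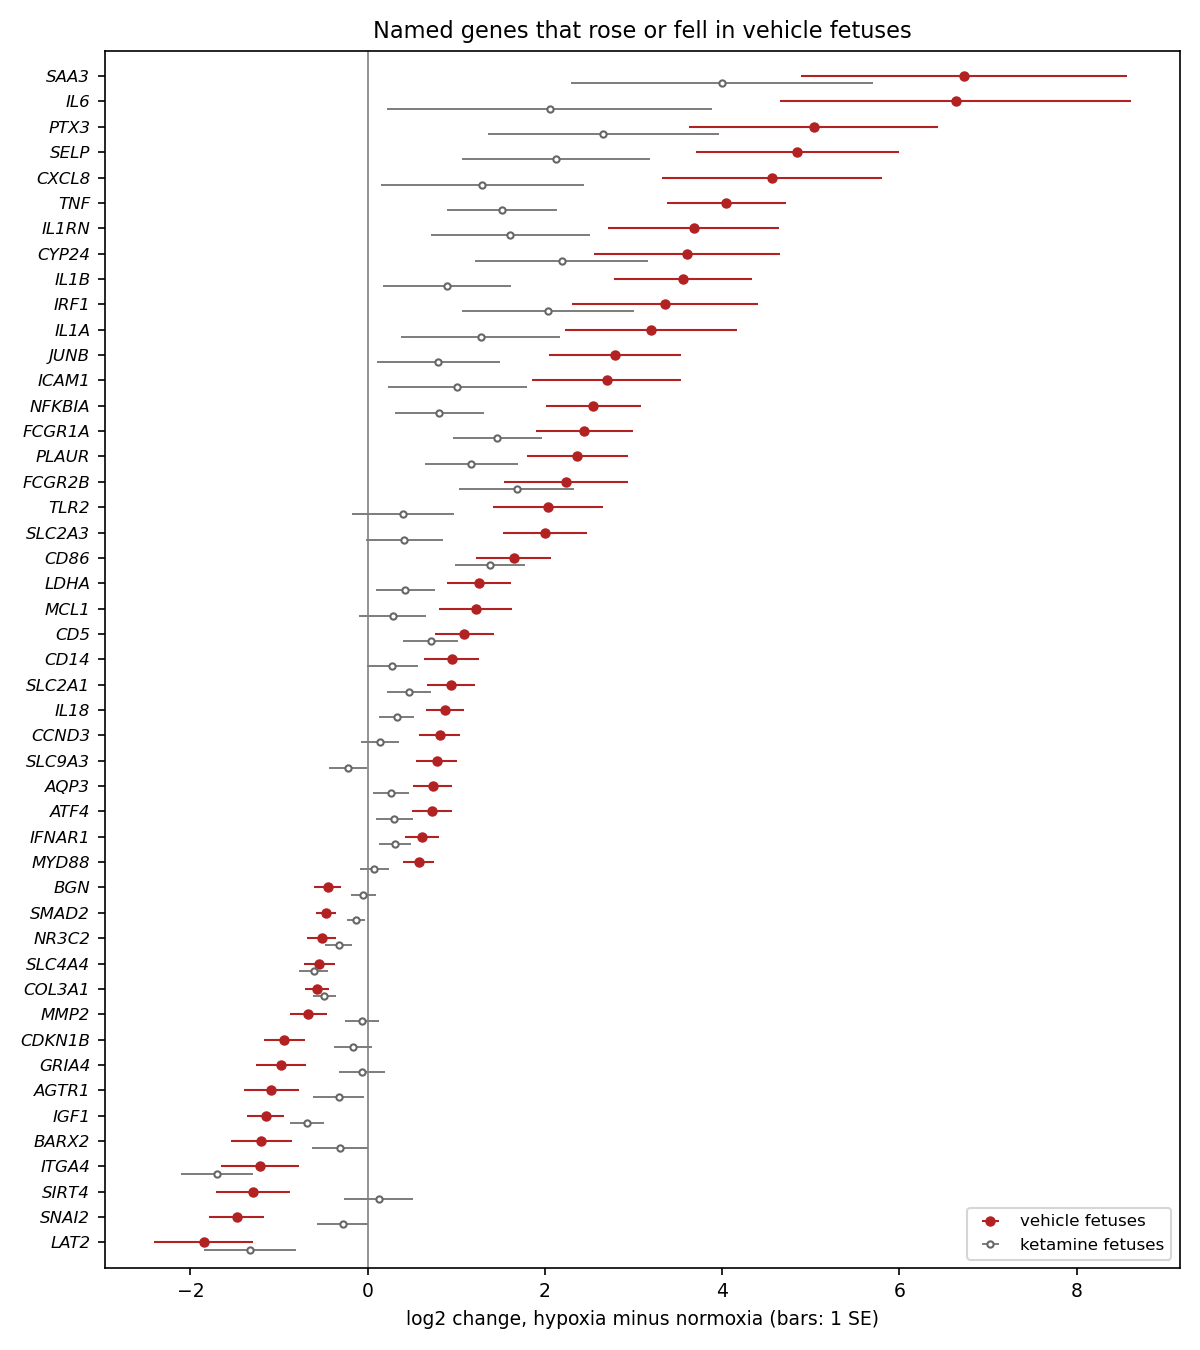
Log2 change, hypoxia minus normoxia, of the 47 genes of the naming rule that rose or fell in vehicle fetuses (red, 4 against 3). Open circles give the change of the same genes in ketamine fetuses (4 against 4). Bars are 1 SE. The increases reach 6.73 for SAA3 and the decreases -1.85 for LAT2, and 43 of the 47 open points lie nearer to 0 on the same side.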

How the data were processed

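Total RNA of kidney cortex was labelled with Cy3 and hybridised to 1-colour Agilent ovine arrays, 1 per fetus. Per the file headers, the deposited scanner intensity was background subtracted and spatially detrended by Feature Extraction 10.1.1.1, with no scaling between arrays. The authors' deposited value table holds log2 values with nearly equal quartiles per column, and the sources used here give neither its background correction nor its filter. After centring, 12 of its 15 columns tracked another array of their group, so it served only as an alternative.

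Here log2 intensity was taken relative to each array's 75th percentile (1064 to 1425 on the 7 arrays, with 81.0% to 84.0% of probes well above background). Outlier spots were dropped; 57 tested probes lacked a value on at least 1 vehicle array. Of 15008 probes, 12923 were well above background on at least 3 of the 15 arrays and were tested with limma 3.58.1 (R 4.3.3), two-sided, with 1 mean per group over all 15 arrays (11 residual and 2.40 prior degrees of freedom). The fit was tested on simulated data.

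Names came from the array files, updated through RefSeq assembly ARS-UI_Ramb_v3.0 for 1313 probes and a table of older symbols, written by hand, for 209. In all 1584 probes (10.6%) had a name, for 959 genes. Where 1 group had no array well above background, its values were raised, for the fold, to the lowest signal so called on each array. The fold is a lower bound only where every array of the other group was well above background. The comparison, the gene lists and the naming rule were chosen with earlier results of these data known. The rule named a panel (TNF, IL1B, SELP, SLC2A3, IGF1), up to 4 members per list with the largest changes passing in every fit that left out 1 array, the 8 largest increases and decreases of that kind without overlap, probes past the adjusted threshold, and VEGFA, EPO, NOS3 and 1 gene that is not reported here. Other members are given by value as list context. Fetuses with the same replicate number did not deviate together and were treated as unpaired. The alternatives were quantile scaling, normexp correction (offset 50), the deposited table, other filters, slide or replicate blocks, within-slide fits, the vehicle arrays alone and leaving out each array.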

Additional observations from a re-analysis of the deposited data

Results flagged for a closer look

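Among the 51 genes of the naming rule, only for BGN did the gap between 1 of the 4 hypoxic fetuses and the nearest other pass Dixon's 95% critical value on the log2 scale. Fetuses that were far higher on the linear scale, as for SAA3, did not meet it. Hypoxic fetus 2 read 30.1 against 24.6 to 25 in the other 3 (scaled signal), and its gap to the nearest of them was 0.921 of the whole log2 range. All 4 values were below the 3 normoxic ones. Chance flags about 1 in 20 groups.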

How the results depend on the processing

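The counts were sensitive to the setting. The 47 called genes were chosen to pass in every fit that left out 1 array, so their stability there was fixed in advance. Of them 38 passed with normexp and 34 within slide 1. With normexp correction 493 probes rose, 763 fell and 0 passed the adjusted threshold in limma. Within slide 1 the counts were 492, 711 and 0, and within slide 2 they were 330, 334 and 0. Leaving out 1 vehicle array gave 501 to 938 rising, 803 to 1523 falling and 0 to 16 past the adjusted threshold. The number past the adjusted threshold was also 0 in the deposited table (657 rose and 1460 fell at an unadjusted p of 0.05), 6 with only the 7 vehicle arrays and 4 with slide as a block. With the replicate block 724 rose, 1095 fell and 0 passed after adjustment. The numbers did not pair the fetuses: deviations of arrays with the same number correlated at -0.04, -0.08 and 0.10, and 1 of 3 normoxic arrays correlated best with its own number. VEGFA reversed within slide 1 (-0.57). The cause of these shifts was not tested. All 47 called genes kept their direction in every setting that measured them. Their log2 change moved by over 1.5 times for 21 with normexp correction, 7 of 44 in the deposited table, 4 within slide 1, 8 within slide 2, and 0 with quantile scaling or either block. The small number of arrays and the dimness of many probes limit the precision.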

Other observations

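Transcripts of antibody genes were high in some hypoxic fetuses. These probes were picked by their description (an immunoglobulin heavy or light chain) after values had been seen. Of 69 such probes 24 could be tested, some with no normoxic vehicle array well above background, so no count of calls over them is given. A probe of the mu chain, A_70_P002936, read 46.9, 45.7 and 61.5 in normoxia and 56.1, 635, 4388 and 294 in hypoxia (3.19 ± 1.08). A_70_P024391, a probe of the same sequence record and so not a second gene, read 10.0, 8.44 and 13.3 and 9.57, 79.1, 471 and 33.8 (2.5 ± 0.95). It passed in only 6 of the 7 fits that left out 1 vehicle array. On both probes, fetus 1 lay inside the normoxic range and fetus 3 was the highest. A_70_P031246, another of the bright probes, differed by 0.06 ± 0.13.

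Other named genes outside the lists and the naming rule, chosen after their values were seen, passed in every fit that left out 1 array. Their changes with normexp and within slides are not given here. GJB2, the gap junction protein connexin 26, rose on all 5 of its probes, with changes of 0.99 to 1.07. RCAN1, an inhibitor of calcineurin, read 507, 801 and 646 in normoxia and 6977, 653, 2008 and 7860.2 in hypoxia (2.19 ± 0.70). It was high in hypoxic fetuses 1 and 4 and inside the normoxic range in fetus 2. CEBPB, a transcription factor of the acute phase, read 3.94, 6.62 and 4.69 and 64.6, 8.09, 18.8 and 83.6 (2.60 ± 0.76), with the same 2 fetuses highest. CLEC4E, a lectin receptor of macrophages, read 1.93, 1.18 and 4.59 and 19.8, 16.9, 43 and 13.1 (3.25 ± 1.03), highest in fetus 3. AREG, a ligand of the EGF receptor, was not well above background in any normoxic fetus and was in all 4 hypoxic ones (at least 9.01-fold higher). CSN1S1, a milk casein, read 1.1, 0.950 and 2.68 and 7.09, 8.46, 21.1 and 12.3 (2.99 ± 0.83).

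The next genes, also chosen after their values were seen, fell in every such fit. FGF10, a mesenchymal growth factor for branching epithelium, fell on all 4 probes (-1.02 to -0.76), which read the same transcript. On A_70_P012571 and on A_70_P012572, the brightest of them, hypoxic fetus 3 lay inside the normoxic range. SMO, the transducer of hedgehog signals, fell on both probes (-0.71 and -0.45), as did the Wnt receptor FZD2 (-0.80 and -0.73) and the basement membrane protein NTN4 (-0.85 and -0.84). SMAD5, which carries BMP signals, read 3.87, 4.25 and 3.47 in normoxia and 1.68, 2.43, 2.26 and 2.11 in hypoxia (-0.88 ± 0.19). HOXC6, a patterning gene, read 1413, 1063 and 1229 and 751, 839.7, 976 and 493 (-0.72 ± 0.24). The groups of SMAD5 and HOXC6 did not overlap. Each of these genes was picked for its change, so the calls are descriptions. Changes with normexp and within slides are not given for them, also where the probe is dim, as for SMAD5.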
